A study of Mus musculus with 10 samples.

Results

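Thy1 and genes of the Ly6 family were examined in cultured splenic B cells of Irf4-/- and Irf4+/+ mice. The members were chosen by symbol: every probe set of the array whose platform annotation names Ly6a, Ly6c1, Ly6c2, Ly6d, Ly6e, Ly6k or Thy1, alone or among several symbols. This gave 7 of 45037 probe sets, and they cover 6 of the 7 genes, among 19324 genes named on the array. No probe set carries the symbol or gene ID of Ly6a, which was therefore not analysed here. Ly6d, Thy1 and the pair Ly6c1/Ly6c2 had 1 probe set each, and Ly6e and Ly6k had 2 each.

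The Irf4-/- group and the Irf4+/+ group each had 5 arrays, from C57BL/6 littermates of 12 weeks. Both groups were enriched for B cells by removing other spleen cells magnetically, and both were cultured for 3 days with an anti-CD40 antibody and IL-4 at 20 ng/ml. No unstimulated sample was used here. Nothing in the labels tells whether the samples of one genotype were separate mice or cultures, so the spread behind each p-value may be technical. Irf4 is a transcription factor that activated B cells induce, and the comparison asks which transcripts differ when both of its alleles are disrupted.

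Ly6 proteins are small cell-surface proteins with a disulphide-bonded three-finger fold, and most are held in the outer membrane leaflet by a glycosylphosphatidylinositol (GPI) anchor. Their genes lie in a cluster on mouse chromosome 15, and several of them are induced by interferons. Leukocyte subsets have long been told apart by antibodies against them. Thy1 (CD90) is anchored in the same way but belongs to the immunoglobulin superfamily. It is the classical surface marker of mouse T cells, and IL-4 has also been described to induce it on mouse B cells stimulated with lipopolysaccharide.

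Every member probe set bright enough to be tested was higher in Irf4-/- cells. Of the 6 tested probe sets 6 rose and 0 fell (limma, adjusted p under 0.05 over all 26626 probe sets tested). As background, 20.8% of all tested probe sets were called higher and 19.7% lower. The median log2 fold change was 1.17 over the 6 tested member probe sets and 0.02 over all tested probe sets. A rise of at least 2-fold was called for 4 of the 6, against a background of 4.71%, and one of at least 4-fold for 1 of the 6, against a background of 1.07%. For all 6, every Irf4-/- array lay above every Irf4+/+ array, which held for 15.3% of all tested probe sets. The Ly6 genes share a locus, Ly6c1 and Ly6c2 share a probe set and Ly6e has a pair of them, so these counts are not over independent features. In bulk RNA a change in the share of cells that express a gene and a change in RNA per cell cannot be told apart.

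**Figure D1:**
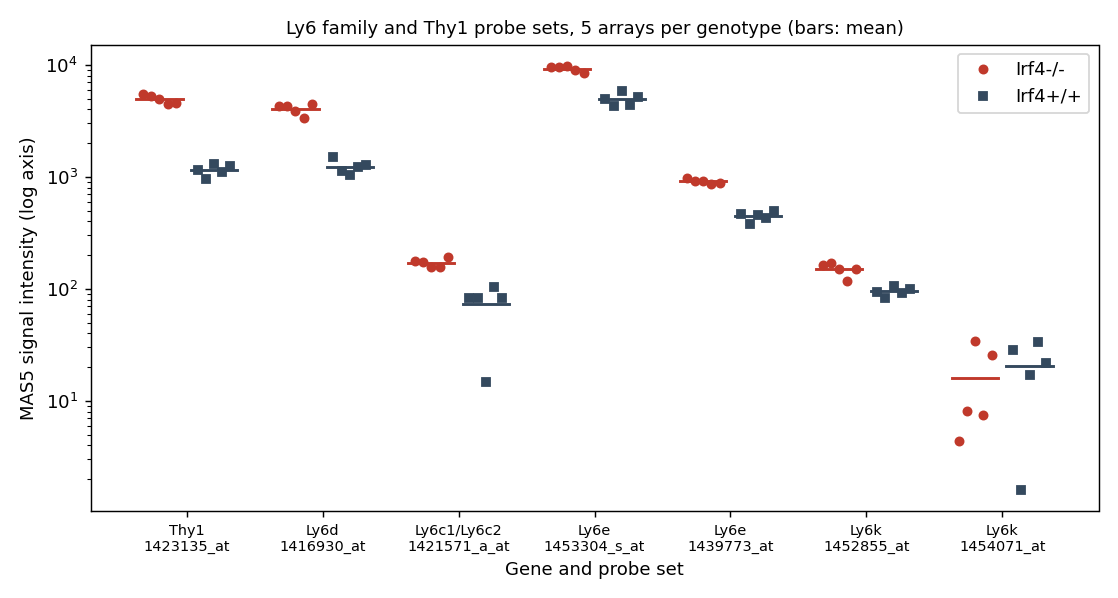
MAS5 signal intensity (log axis) of the 7 member probe sets, with 1 point per array, 5 Irf4-/- arrays on the left and 5 Irf4+/+ arrays on the right of each pair, and bars at the means. The genotypes separate in all but the dim second Ly6k probe set, and the height of 1 probe set cannot be compared with that of another.

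Thy1 showed the largest difference among the members. Its probe set (1423135_at) read 5487, 5255.9, 4962.6, 4433.3 and 4523 signal units in Irf4-/- arrays, against 1150.4, 956.2, 1308, 1109.9 and 1241.3 in Irf4+/+ arrays. The groups were far apart: the lowest Irf4-/- array was 3.39 times the highest Irf4+/+ array. The means were 4932 ± 455 in Irf4-/- arrays and 1153 ± 135 in Irf4+/+ arrays (SD, n = 5 each). The difference on the log2 scale was 2.09 (SE 0.0826, limma adjusted p = 6.95e-12), a 4.26-fold rise. A log2 fold change of at least this size was found for 0.958% of all tested probe sets. Thy1 lies on chromosome 9 (44043384 to 44048579, GRCm38.p6) and so apart from the Ly6 cluster.

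Since Thy1 marks T cells, the T cell genes of the same arrays were read beside it. Cd3d, Cd3e and Cd3g, invariant chains of the T cell receptor complex, averaged 5.68, 12.0 and 11.2 signal units in Irf4-/- samples, against 5.76, 9.86 and 8.06 in Irf4+/+ samples. The coreceptor Cd4 averaged 7.24 in Irf4-/- and 6.04 in Irf4+/+ samples. All these means lay under 26.1, the 40th percentile of all deposited values, which served as the lower limit for testing. A further invariant chain, Cd247, averaged 32.7 ± 16.3 in Irf4-/- and 14.4 ± 19.0 in Irf4+/+ samples. Its mean over all arrays was under the limit, so it was not tested, and its groups overlapped. The other coreceptor, Cd8a, averaged 77.2 ± 10.9 in Irf4-/- and 81.9 ± 16.3 in Irf4+/+ samples and was not called (log2 fold change -0.07, SE 0.158, adjusted p = 0.775). Over the 18 T cell markers with a probe set, 9 were tested. Of these 3 rose (33.3%, against 22.9% of all tested genes), 1 fell (11.1%, against 23.6%) and 5 were not called. For 2 of the 3 that rose, Cd2 and Cd5, the Irf4+/+ mean was under 26.1. They were tested only through their Irf4-/- level, which therefore had to be the higher, though not by enough to be called. The adhesion receptor Cd2 rose, with 85.3 ± 22.3 in Irf4-/- and 25.5 ± 9.45 in Irf4+/+ samples. The inhibitory receptor Cd5 and the IL-7 receptor chain Il7r also rose (log2 fold changes 1.34 and 0.63), and the costimulatory receptor Cd28 fell by 0.52. The summed signal of the list ranged from 512.8 to 704.4 in Irf4-/- arrays and from 444.3 to 727.7 in Irf4+/+ arrays. Cd3d, Cd3e, Cd3g and Cd4 gave little of it, and Cd8a and Zap70 were among its larger parts. Zap70 averaged 68.2 ± 54.7 in Irf4-/- and 97.2 ± 102 in Irf4+/+ samples and read 265.7 on Irf4+/+ replicate 5. The sum is therefore no measure of T cell content.

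**Figure D2:**
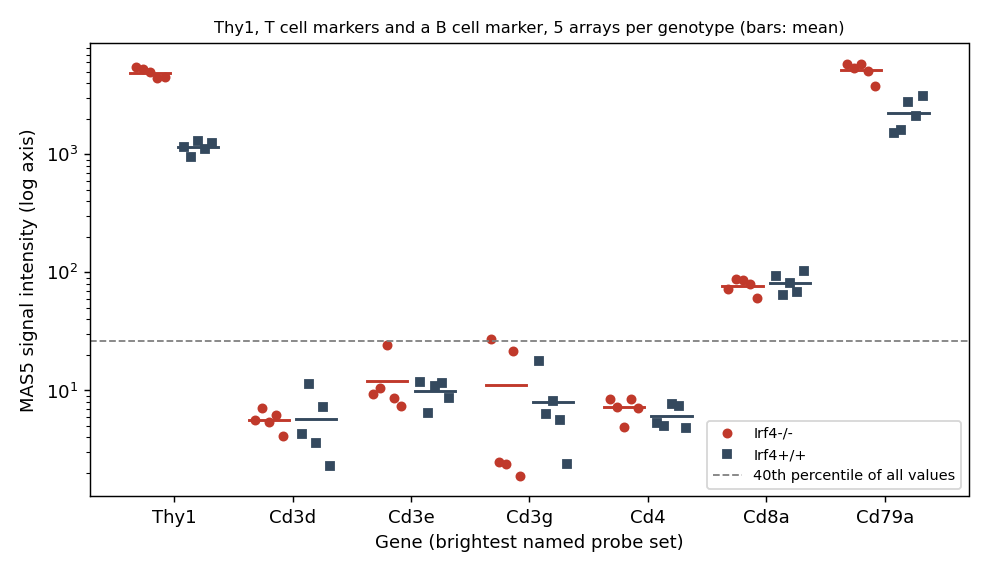
MAS5 signal intensity (log axis) of Thy1, 5 T cell markers and the B cell receptor chain Cd79a, with 1 point per array, Irf4-/- left and Irf4+/+ right, and bars at the means. Thy1 separates the genotypes, while Cd3d, Cd3e, Cd3g and Cd4 have means under the dashed line at 26.1 in both and Cd8a overlaps.

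Ly6d had the next largest difference. It encodes a Ly6 protein that marks lymphoid progenitors committed to the B lineage and is kept on mature B cells. Its probe set (1416930_at) read 4328.7, 4268.5, 3840.9, 3368.5 and 4491.7 in Irf4-/- arrays, against 1488.4, 1126, 1032.6, 1211.5 and 1287.7 in Irf4+/+ arrays. The lowest Irf4-/- array was 2.26 times the highest Irf4+/+ array. Means were 4060 ± 455 in Irf4-/- arrays and 1229 ± 173 in Irf4+/+ arrays (SD, n = 5 each), and the difference on the log2 scale was 1.72 (SE 0.0943, adjusted p = 3.75e-10), a 3.30-fold rise. All 11 tested B cell markers also rose in Irf4-/- samples, against 22.9% of all tested genes, with a median log2 fold change of 0.74. The smallest p among these markers was that of Cd79b, a chain of the B cell receptor, with 13249 ± 820 in Irf4-/- and 5978 ± 286 in Irf4+/+ samples (log2 fold change 1.15, SE 0.0561, adjusted p = 9.34e-11). The summed B cell marker signal ranged from 62698.7 to 69524.1 in Irf4-/- and from 33504.2 to 38396 in Irf4+/+ arrays, and its part in the Ly6d value was not tested.

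Ly6e was measured by a pair of probe sets that gave like values. The protein (also called Sca-2 or TSA-1) is found on immature thymocytes and activated lymphocytes, is induced by interferon and alters the entry of several viruses into cells. The brighter probe set (1453304_s_at) read 9531.5, 9464.8, 9791.1, 8922.9 and 8366.8 in Irf4-/- arrays, against 4957.1, 4304.3, 5809, 4362.7 and 5150.2 in Irf4+/+ arrays. The ranges did not overlap, with the lowest Irf4-/- array at 1.44 times the highest Irf4+/+ array. The difference on the log2 scale was 0.91 (SE 0.0767, adjusted p = 6.66e-08), a 1.88-fold rise. The dimmer probe set (1439773_at) read 981.2, 910.3, 921.1, 858.5 and 880.8 in Irf4-/- arrays, against 461, 381.6, 459.6, 425.4 and 491.8 in Irf4+/+ arrays. Here too all Irf4-/- arrays were higher, and the difference on the log2 scale was 1.03 (SE 0.0742, adjusted p = 1.09e-08), a 2.04-fold rise. Both probe sets target 1 gene and were read on the same arrays, so they are not separate evidence.

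Ly6c1 and Ly6c2 encode closely related forms of the antigen Ly-6C, which is found on monocytes, plasma cells, endothelial cells and memory T cells of the mouse. A single probe set (1421571_a_at) names both genes, so their transcripts could not be told apart. The copies lie on the minus strand of chromosome 15, Ly6c1 from 75044018 to 75048920 and Ly6c2 from 75108161 to 75112066. The stretches just before their outermost annotated starts, from RefSeq (GRCm38.p6), are printed to show how alike the upstream sequences of these paired genes are, with capitals at bases that differ from the other copy or have no partner there.
Ly6c1 (chr15:75048921-75049087, minus strand, 5′ to 3′): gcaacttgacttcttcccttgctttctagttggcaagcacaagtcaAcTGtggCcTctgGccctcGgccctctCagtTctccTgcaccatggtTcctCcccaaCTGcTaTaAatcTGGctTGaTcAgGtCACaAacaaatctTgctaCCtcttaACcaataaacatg
Ly6c2 (chr15:75112067-75112221, minus strand, 5′ to 3′): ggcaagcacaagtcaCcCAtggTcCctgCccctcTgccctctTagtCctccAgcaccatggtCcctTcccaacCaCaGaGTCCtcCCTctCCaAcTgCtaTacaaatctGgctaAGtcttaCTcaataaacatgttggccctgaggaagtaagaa

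Of 130 aligned bases 101 were identical (77.7%), with 6 further bases of Ly6c1 and 4 of Ly6c2 unpaired inside the alignment. Another 31 bases of Ly6c1 and 21 of Ly6c2 fell outside it and are in lower case. The 250 bases before each of the 2 starts per gene that the promoter table holds were searched on both strands for 4 motifs of factors that respond to interferon or IL-4 or that partner Irf4. These were the interferon response core (GAAA, any 2 bases, GAAA), the Ets and Irf composite (GGAA, any 2 bases, GAAA), the AP-1 motif TGANTCA and the STAT6 motif, in which TTC and GAA stand 4 bases apart. None was found there, where shares of all 32851 promoter windows with a match were 2.98%, 2.30%, 6.75% and 5.85% in the same order. No match says only that these letters were not in these windows.

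The Ly6c1/Ly6c2 probe set read 176.3, 172.6, 156.6, 156.9 and 192.4 in Irf4-/- arrays, against 82.4, 83.6, 14.7, 102.8 and 83.5 in Irf4+/+ arrays. All Irf4-/- arrays were higher, and Irf4+/+ replicate 3 stood far below the other Irf4+/+ arrays. The means were 171 ± 14.96 in Irf4-/- arrays and 73.4 ± 33.9 in Irf4+/+ arrays (SD, n = 5 each). The difference on the log2 scale was 1.32 (SE 0.317, adjusted p = 0.00308), a 2.49-fold rise. Without Irf4+/+ replicate 3 it was 0.90 (SE 0.117, adjusted p = 1.74e-05), so the size of the change rests in part on that array. For the other members that array was not low throughout: it was the highest of its group for Thy1, the brighter Ly6e and the brighter Ly6k probe set, and the lowest for Ly6d.

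Ly6k encodes a GPI-anchored protein needed for sperm function in the mouse. Its brighter probe set (1452855_at) read 162.4, 170.7, 149.2, 116.4 and 151.4 in Irf4-/- arrays, against 93, 83.3, 106.9, 91.8 and 100.1 in Irf4+/+ arrays. The groups did not overlap but nearly touched, the lowest Irf4-/- array being 1.09 times the highest Irf4+/+ array. The difference on the log2 scale was 0.61 (SE 0.123, adjusted p = 0.000707), a 1.53-fold rise and the smallest among the called members. A rise of at least this size was found for 11.0% of all tested probe sets. The other Ly6k probe set (1454071_at) read 4.4, 8.1, 34.1, 7.4 and 25.7 in Irf4-/- arrays, against 28.6, 1.6, 17, 33.5 and 21.9 in Irf4+/+ arrays. Both of its means were under 26.1, it was left out of the fit, and its groups overlapped. At that level the values carry no order and no direction was read from them. The Ly6k rise therefore rests on 1 of its 2 probe sets.

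The 6 called probe sets had both group means above the limit of 26.1, so none was tested only because of its Irf4-/- level. Apart from Ly6c1/Ly6c2 in Irf4+/+ samples, where the coefficient of variation was 46.2%, their coefficients of variation lay between 5.12% and 13.8% in Irf4-/- and between 9.39% and 14.1% in Irf4+/+ samples. Irf4-/- replicate 4 was the lowest of its group for 4 of the 6 and Irf4+/+ replicate 2 for 4 of the 6. The median log2 deviation of the member probe sets from their group mean was -0.13 on Irf4-/- replicate 4 and -0.18 on Irf4+/+ replicate 2, while over all tested probe sets it was 0.03 and 0.02 on the same arrays.

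Along chromosome 15 few genes beside the members could be measured. From Psca to Gpihbp1 the RefSeq annotation of GRCm38.p6 lists 29 protein-coding genes, of which 21 had a named probe set. Of the 16 such genes outside the member list, 6 were tested and 10 were dim in this fit. Lynx1, the neighbour of Ly6d and known in brain as a modulator of nicotinic acetylcholine receptors, was the 1 gene of these 6 that rose. Over all tested genes 22.9% rose. The brighter Lynx1 probe set averaged 659 ± 42.1 in Irf4-/- arrays and 238 ± 24.9 in Irf4+/+ arrays (SD, n = 5 each), which is 1.44 on the log2 scale (SE 0.0836, adjusted p = 7.03e-10). A dimmer Lynx1 probe set also rose (log2 fold change 1.64, SE 0.110, adjusted p = 4.12e-09). Ly6i, the next protein-coding gene after Ly6e, read 18.8, 60.5, 22.5, 20.8 and 79.2 in Irf4-/- arrays, against 31.7, 5.4, 22.6, 6.9 and 5.9 in Irf4+/+ arrays. These overlapped, and Ly6i was not called (log2 fold change 1.08, SE 0.427, adjusted p = 0.0543). Psca, Slurp1, Cyp11b2 and Gpihbp1 were not called, with log2 fold changes from -0.48 to 0.61. Ly6i and Cyp11b2 had Irf4+/+ means of 14.5 and 21.2, under 26.1, so both were tested only through their Irf4-/- level, which had to be the higher. Slurp1, at 23.8 in Irf4-/- and 36.3 in Irf4+/+ samples, was tested only through its Irf4+/+ level. The direction of these changes thus followed from the limit. Cyp11b2, at 0.61 (SE 0.293), had the same fitted change as Ly6k, but for that reason the values are not alike. Most of these genes were near the limit, so a difference between them and the members was not shown. The dim genes included Ly6m, Ly6f, Ly6h, Ly6g2 and Ly6g6g.

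**Figure D3:**
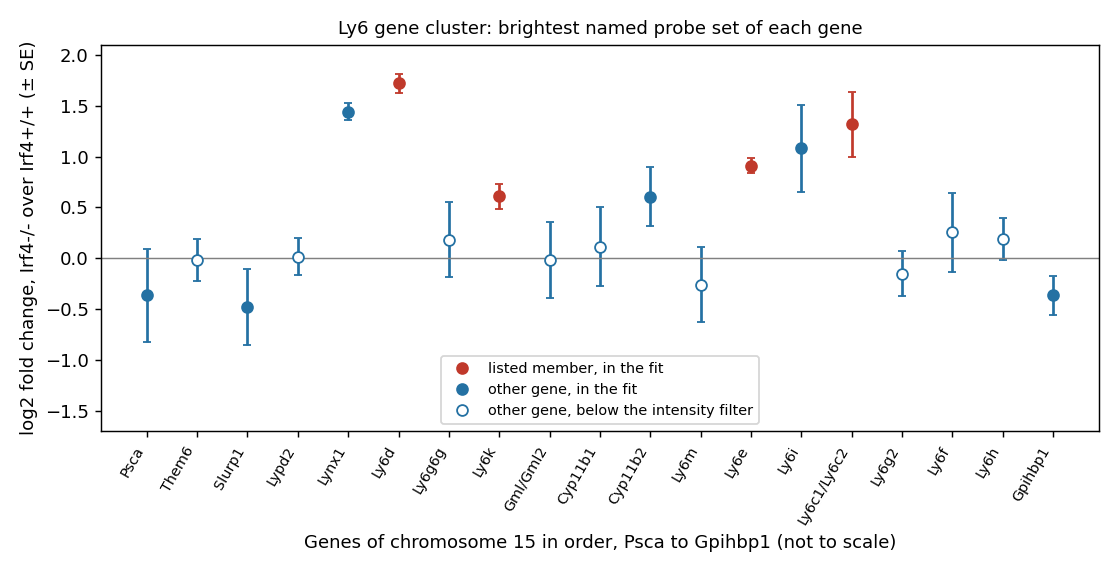
Log2 fold change, Irf4-/- over Irf4+/+ (± SE), of the brightest named probe set of each gene from Psca to Gpihbp1, in chromosome order and not to scale; filled points were in the fit, and open points lay below the intensity limit and come from the fit with no limit. Lynx1 and Ly6d stand side by side at 1.44 and 1.72, and the 1 tested gene between Ly6k and Ly6e, Cyp11b2, has a wide error.

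In the wider Ly6 and urokinase receptor group few other genes could be tested. Of 38 listed genes 26 had a probe set, of which 15 were dim and 11 were tested: 2 rose, 0 fell and 9 were not called, with a median log2 fold change of 0.05. Over all 12095 genes tested by their brightest probe set 22.9% rose and 23.6% fell. The riser beside Lynx1 was Plaur, the urokinase receptor, with 71.3 ± 5.32 in Irf4-/- and 31.98 ± 5.50 in Irf4+/+ samples (log2 fold change 1.00, SE 0.172, adjusted p = 0.000178). Cd59a, which blocks the terminal complement complex, was not called (log2 fold change -0.28, SE 0.178, adjusted p = 0.234).

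Genes for the enzymes that build and attach the GPI anchor were called about as often as genes in general. Of 28 tested genes 8 rose (28.6%, against 22.9% of all genes), 7 fell (25.0%, against 23.6%) and 13 were not called, with a median log2 fold change of 0.02. Piga, the catalytic subunit of the first step, averaged 507 ± 32.7 in Irf4-/- and 859 ± 92.7 in Irf4+/+ samples (log2 fold change -0.75, SE 0.0796, adjusted p = 1.08e-06). Pigf and Pigb, which act later in the pathway, also fell (log2 fold changes -0.59 and -0.59), while Pigp, a further subunit of the first enzyme complex, rose (0.64). Of 19 tested genes listed as other GPI-anchored proteins 5 rose (26.3%), 3 fell (15.8%) and 11 were not called, with a median of 0.05, also near the shares over all genes. This list was drawn up by hand and is not separate from the Ly6 and urokinase receptor group: Plaur, 1 of the 5 that rose, and Cd59a stand in both. Cd24a, a mucin-like protein of developing and activated B cells, read 635.6, 793, 682.7, 571.7 and 637.3 in Irf4-/- arrays, against 4855.3, 4529.4, 5045.9, 5340 and 4758 in Irf4+/+ arrays. Its arrays were far lower in Irf4-/- samples, with a log2 difference of -2.88 (SE 0.0772, adjusted p = 6.27e-14). Alpl, tissue-nonspecific alkaline phosphatase, and the adhesion protein Cd48 also fell (log2 fold changes -1.71 and -0.61), whereas the small lymphocyte glycoprotein Cd52 rose (0.58).

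Interferon-responsive genes were higher in the same arrays. Of 27 tested 25 rose (92.6%, against 22.9% of all tested genes), 0 fell and 2 were not called, with a median log2 fold change of 1.83. Of the 25, 4 were tested only through their Irf4-/- level; of the 22 genes with both means at or above 26.1, 21 rose. Among them Iigp1 and Gbp2, interferon-inducible GTPases, rose by log2 fold changes of 4.65 and 3.25, and Samd9l and Parp14 by 3.26 and 1.64. The interferon-inducible Ly6e, at 0.91 and 1.03, lay below the list's median. Bst2, a GPI-anchored protein known to be induced by interferon, was 1 of the 2 not called (log2 fold change 0.14, SE 0.118, adjusted p = 0.396). Whether the difference in the Ly6 genes depends on interferon signalling was not tested.

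Markers of natural killer cells, and some of macrophages and neutrophils, were also higher in Irf4-/- samples. Over all genes tested by their brightest probe set 22.9% rose and 23.6% fell. All 11 natural killer cell markers tested rose, but 7 of them had an Irf4+/+ mean under 26.1. These were tested only through their Irf4-/- level, which therefore had to be the higher. Each of the other 4 rose: the granule proteases Gzma and Gzmb, the pore-forming protein Prf1 and the transcription factor Eomes. Their list's summed signal ranged from 11847.6 to 16211.6 in Irf4-/- arrays and from 1350.4 to 1567.8 in Irf4+/+ arrays. Gzma and Gzmb, which activated T cells make as well, gave 91.3% of that sum in Irf4-/- and 83.0% in Irf4+/+ arrays. Without them it ranged from 1199.2 to 1295.3 in Irf4-/- and from 181.2 to 297.2 in Irf4+/+ arrays. The receptor Ncr1, which defines these cells, averaged 45.7 ± 10.3 in Irf4-/- and 16.2 ± 7.83 in Irf4+/+ samples. Of 10 tested macrophage and monocyte markers 6 rose, 0 fell and 4 were not called, 2 of the 6 being tested only through their Irf4-/- level, with a summed signal from 1823 to 2015.2 in Irf4-/- arrays and from 642 to 727.6 in Irf4+/+ arrays. Among their defining genes Adgre1 averaged 611 ± 30.6 in Irf4-/- and 153 ± 21.0 in Irf4+/+ samples, while Csf1r was not called (119 ± 15.6 in Irf4-/- and 95.6 ± 13.7 in Irf4+/+ samples) and neither was Fcgr1 (42.8 ± 10.5 in Irf4-/- and 43.6 ± 13.4 in Irf4+/+ samples). Lyz2, Mpeg1 and Cd68 also rose with both means above 26.1 (log2 fold changes 2.39, 1.85 and 1.38). Msr1 and Ctsk were those tested only through their Irf4-/- level, and Ccr2 and Mrc1 were not called. The further macrophage markers C1qa, C1qb, C1qc, Cd14 and Itgam were dim in both genotypes. Of 5 tested neutrophil markers 3 rose, 2 of them (S100a8 and S100a9) tested only through their Irf4-/- level, with a summed signal from 681.9 to 1145.6 in Irf4-/- and from 149.1 to 255.2 in Irf4+/+ arrays, and S100a8 averaged 267 ± 67.2 in Irf4-/- and 18.3 ± 7.87 in Irf4+/+ samples. The other neutrophil marker that rose, Ngp, averaged 236 ± 56.8 in Irf4-/- and 48.0 ± 10.3 in Irf4+/+ samples, while Mpo and Elane were not called. A further 5 neutrophil markers were dim over all arrays and not tested. Of these Mmp8 averaged 32.8 in Irf4-/- and 5.26 in Irf4+/+ samples, and Ltf 35.5 and 7.74. In the same order Csf3r averaged 19.9 and 10.5, Camp 18.6 and 21.4, and Cxcr2 9.66 and 10.7. Ly6g, the marker that names neutrophils, had no named probe set. Of 4 tested stromal and endothelial markers 1 rose (25%, near the share over all genes), Pecam1. It averaged 106 ± 5.84 in Irf4-/- and 24.4 ± 12.7 in Irf4+/+ samples and so was tested only through its Irf4-/- level. The other 3 were not called: Eng (120 in Irf4-/- and 93.7 in Irf4+/+ samples), Kdr (38.1 and 45.7) and Col1a2 (40.6 and 57.3). The vessel genes Cdh5, Tek and Vwf were dim over all arrays, though Cdh5 averaged 31.9 in Irf4-/- and 14.0 in Irf4+/+ samples. The part of these cell types in the Ly6 and Thy1 values was not tested.

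**Figure D4:**
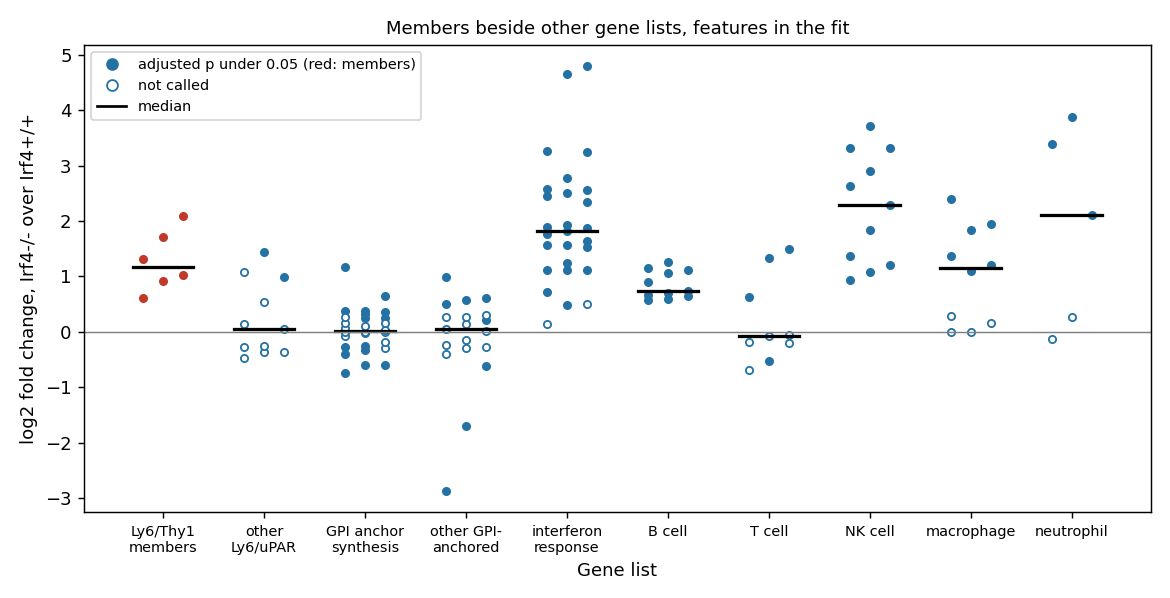
Log2 fold changes, Irf4-/- over Irf4+/+, of the 6 tested member probe sets and of the tested genes of 9 other lists, with 1 point per feature, filled where adjusted p was under 0.05, and bars at the medians. The members and the interferon, B cell and NK cell lists lie almost wholly above 0, as do most macrophage and neutrophil points. The GPI anchor synthesis and other GPI-anchored lists spread to both sides.

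The features whose profile over the 10 arrays was nearest to each member were found by the root mean square difference of centred log2 values. For Thy1 they were Lgals3, Klf2 and Lst1, at distances of 0.123, 0.126 and 0.134 on the log2 scale and with log2 fold changes of 2.22, 2.02 and 2.05. Ly6d was nearest to Plaat3, Serpinb6b and Rgs1 (0.109, 0.129 and 0.131), and the brighter Ly6e probe set to Inpp5d, Gnai2 and Sys1 (0.0549, 0.0593 and 0.0618). The brighter Ly6k probe set was nearest to Mettl23, Cib1 and Ndufv2 (0.0679, 0.0681 and 0.0706). For Ly6c1/Ly6c2 the nearest were Trim12a, Ppp2r3a and Trp53inp2, at larger distances of 0.282, 0.319 and 0.328. With 2 groups of arrays such a profile is mostly the size of the difference between the genotypes.

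Facts of the whole series bear on all of these values. Irf4 transcript was still measured: its brighter probe set averaged 2792 ± 128 in Irf4-/- and 3761 ± 211 in Irf4+/+ samples, and no label says whether it lies inside the disrupted stretch, so it does not check the genotype. The 3 probe sets of the 18S ribosomal RNA control were 3.00-fold to 4.30-fold higher in Irf4-/- samples (exact two-sided permutation p = 0.00794, the smallest that 5 against 5 can give; adjusted p = 0.0132 over 5 control measures). The Actb control had a 3′ to 5′ signal ratio of 1.10 ± 0.0227 in Irf4-/- arrays and 1.15 ± 0.0259 in Irf4+/+ arrays (exact permutation p = 0.0238, adjusted p = 0.0298). That ratio for Gapdh, another control, was 0.859 ± 0.0404 in Irf4-/- arrays and 0.856 ± 0.0269 in Irf4+/+ arrays (exact permutation p = 0.873, adjusted p = 0.873). The part of these differences in the member values was not tested.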

How the data were processed

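The deposited table holds a signal intensity on a linear scale for each probe set and array. Per the submitters' processing notes it comes from MAS5, whose version is not stated. Its mean without 2% of values at each end was 250 on every array, so no further scaling was done. Precision is limited by the 5 arrays per genotype.

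Values were taken as log2(signal + 7.9), the 20th percentile of all values, which understates changes of dim genes. Probe sets averaging at least 26.1 (the 40th percentile) over all arrays entered a limma 3.58.1 fit (R 4.3.3; eBayes with trend), Irf4-/- minus Irf4+/+, with Benjamini-Hochberg adjustment over 26626 probe sets; all adjusted p-values are from it unless stated. Probe sets rather than genes were fitted, because 1 member probe set has 2 symbols. Lists use each gene's brightest probe set with 1 symbol, and symbols were updated through the RefSeq table of GRCm38.p6 (34741 of 34945 probe sets matched, 932 have several symbols and 9160 are unnamed). Promoters were aligned with Biopython 1.88 (match 2, mismatch -1, gap opening -4, extension -0.2). In simulated data for 26626 probe sets, 50 were changed 1.5-fold, 100 were changed 2-fold and 50 were changed 4-fold. The fit recovered 38%, 73% and 94% of these in the same order. Far more probe sets were called in the real data, where the adjustment is therefore less strict. These shares thus do not give the sensitivity in the real data.

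The members and lists were chosen with earlier results of these data known. Named genes are the members, Irf4, up to 4 of each list by smallest p and the 3 nearest profiles of each member; others were named after their values were seen. Alternatives covered the pseudocount, filter, scaling, variance model, array weights, replicate block, feature and each array left out. One promoter motif is not reported here.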

Additional observations from a re-analysis of the deposited data

Results flagged for a closer look

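The Ly6c1/Ly6c2 probe set read 14.7 on Irf4+/+ replicate 3, where the other 4 Irf4+/+ arrays lay between 82.4 and 102.8. Its gap to the nearest array was 0.768 of the group's range, past the 95% limit of Dixon's test for 5 samples. It was the 1 such value among 14 groups of member values examined, and chance flags about 1 in 20 groups.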

How the results depend on the processing

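The 6 called member probe sets kept their direction and stayed called under every alternative that could include them: other pseudocounts, filters, scalings and variance models, array weights, the replicate block and each array left out. Over these alternatives the log2 fold change ranged from 2.03 to 2.14 for Thy1, 1.66 to 1.79 for Ly6d, 0.85 to 0.97 for the brighter and 0.97 to 1.06 for the dimmer Ly6e probe set, 0.51 to 0.69 for Ly6k and 0.90 to 1.47 for Ly6c1/Ly6c2. The exact permutation test gave p = 0.00794 for each of the 6, the smallest that 5 against 5 can give. With 1 probe set per gene, 2857 genes were called higher and 2927 lower, against 5527 and 5245 probe sets, because fewer features are tested (12095 against 26626); that setting holds 4 member probe sets, since Ly6c1/Ly6c2 has several symbols and 1 Ly6e probe set per gene is kept. The balance of all calls turned with the scaling: median centring gave 4477 higher and 5926 lower, and quantile normalization 5056 higher and 5781 lower. Leaving out each array gave 5045 to 5399 probe sets called higher and 4795 to 5285 lower. With the replicate block 5462 were called higher and 5168 lower, and all 6 member probe sets remained called. Same-numbered samples did not deviate together (r from -0.03 to 0.04). For each Irf4-/- sample the best of the other numbers correlated better than its own. The best of several is usually the higher, so that comparison says little about pairing. The dim second Ly6k probe set is near the floor of the array and its values carry no order.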
